A study of Mus musculus with 12 samples.

Results

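The mitochondrial ribosomal protein genes were examined in CD4+ T cells of 12 female mice by RNA-Seq. They were chosen by symbol, as the protein-coding genes of the deposited table named Mrpl or Mrps and a number, and named pseudogenes were left out. The rule found 77 genes among 35275 in the table, of which 50 encode large subunit proteins, 26 encode small subunit proteins and 1, Mrps36, carries a ribosomal name without being a ribosomal subunit. Levels are in FPKM, the fragments of a gene scaled to transcript length and to library size. Genes averaging 0.5 FPKM or more across all mice were tested, and 76 of the 77 members passed. Mrpl33 has no row in the table and was not analysed here.

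There were 4 groups of 3 mice aged 9 to 12 weeks. B6 mice (C57BL/6) were untreated (replicates 3, 4 and 5) or were given 100 µg doses of anti-CD45RB, clone MB23G2, over a week (replicates 1, 3 and 5). SLE123 mice (B6.NZMSle1/Sle2/Sle3) carry lupus susceptibility intervals from NZM2410 mice on the B6 background, on chromosomes 1, 4 and 7, and were untreated or treated in the same way (replicates 1, 2 and 3 each). The antibody binds an isoform of the surface phosphatase CD45 and is used to induce transplant tolerance, which the study asked about in lupus-prone animals. CD4+ T cells were enriched by removing other cells, and each library came from 1 mouse, so that the tests measure the spread between these mice.

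Mitochondria keep a small genome of their own, which encodes core subunits of the respiratory chain and of ATP synthase. These are translated by mitochondrial ribosomes, whose RNAs come from that genome and whose proteins are all encoded in the nucleus, made in the cytoplasm and imported. Many of the proteins have a counterpart in the bacterial ribosome, and the others exist only in mitochondria. In T cells, activation is accompanied by mitochondrial biogenesis, and effector function depends in part on mitochondrial translation.

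The libraries held 13563594 to 23642948 fragments, so that 3 fragments on a transcript of 2000 bases corresponded to 0.0634 to 0.111 FPKM. This limit reflects sampling of fragments alone. The defining T cell genes (Cd3d, Cd3e, Cd4, Lck and 6 others) were all above 0, with a summed level of 2350 to 3098 FPKM in all libraries. Transcripts of other cells differed between the groups. Immunoglobulin genes took 0.0895 to 0.336% of the fragments in B6 and 2.51 to 12.2% in SLE123. A list of 8 B cell genes summed to 6.14 to 7.56 FPKM in untreated B6, 25.1 to 33.8 in treated B6, 37.4 to 56.7 in treated SLE123 and 62.4 to 224 in untreated SLE123, and 5 plasma cell genes to 32.5 to 52.1, 62.1 to 159, 959 to 1761 and 1834 to 4789. A list of 8 myeloid genes summed to 6.27 to 11.3, 61.4 to 132, 24.8 to 51.4 and 46.6 to 103 FPKM in the same order of groups, and 7 genes of proliferating cells to 33.4 to 36.1, 37.7 to 47.4, 157 to 170 and 106 to 183. Genes of basophils and eosinophils (6), erythroid cells (7) and platelets (3) summed to 4.03 to 4.39, 2.08 to 4.88 and 2.32 to 4.26 FPKM in untreated B6 and to 133 to 160, 38.7 to 57.4 and 5.61 to 10.5 FPKM in untreated SLE123. Those of CD8 T cells (2) and NK cells (4) were at 4.23 to 19.4 and 4.66 to 39.8 FPKM over all libraries, highest in treated B6. The 7 hepatocyte genes summed to 44.4 to 52 FPKM in all B6 libraries, 0.0513 to 48.8 FPKM in treated SLE123 and 0.0296 to 0.396 FPKM in untreated SLE123, where 3 of them were at 0. The part of these transcripts in the results below was not tested. In such bulk samples fewer cells of a type and less RNA per cell cannot be told apart.

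The library of untreated SLE123 replicate 2 stood apart. Its median member lay 0.247 above that gene's mean of the 12 mice on the log2(FPKM + 1) scale, while the other 11 libraries lay between -0.098 and 0.029. The deviation followed transcript length, with 0.383 for members under 1000 bases, 0.177 for 1000 to under 2000 bases and 0.162 for 2000 bases or more. Protein-coding genes as a whole also fell with length in this library, at 0.285, 0.198 and -0.070 for these length classes. Their longest class lay below 0, whereas that of the members lay above it. The members' main counts, medians and differences that use this library are also given without it where stated. Other values of untreated SLE123 mice include it.

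**Figure D1:**
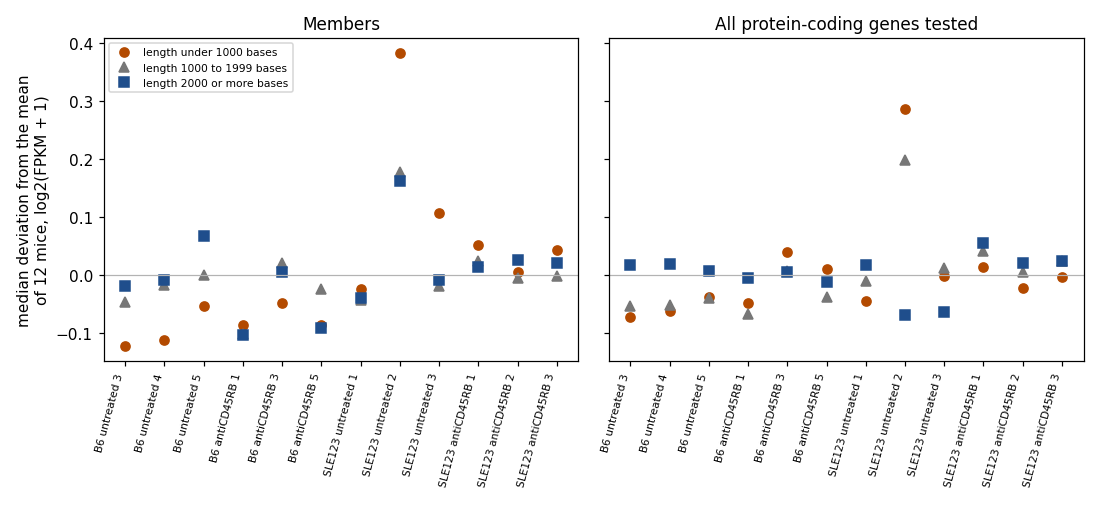
Median deviation of each library from the mean of the 12 mice (y axis, log2(FPKM + 1)), for members on the left and all tested protein-coding genes on the right, by transcript length class. Untreated SLE123 replicate 2 sits at 0.383 for short members and 0.285 for short genes at large, above every other library.

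The members were moderately and unevenly expressed. Over the 76 tested members the mean level had a median of 14.8 FPKM and quartiles of 10.1 and 25.2, and the levels spanned 29.6-fold. The large subunit proteins had a median of 16.1 FPKM and the small subunit proteins one of 13.1. For comparison, the median was 9.79 FPKM over the 13115 genes tested, 52.5 FPKM over 79 nuclear-encoded respiratory chain subunits and 933 FPKM over 76 cytoplasmic ribosomal protein genes. Per transcript length, the median of the cytoplasmic ribosomal protein genes was thus far above the highest member.

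The highest levels were in Mrpl52 (77.4 FPKM over the 12 mice), which encodes a large subunit protein found only in mitochondria, Mrpl24 (65.5 FPKM) and Mrpl9 (51.3 FPKM), which both have bacterial counterparts. The lowest of the tested members was Mrps25, at 2.61 FPKM, next to the filter on its upper side, and Mrps22 followed with 3.65 FPKM. Both encode small subunit proteins specific to mitochondria. Mrps25 shares 4590 of its 6576 exon bases with Nr2c2 on the opposite strand, and Mrpl24 shares 594 of 2255 with Rrnad1. Mrpl53, the member that did not pass the filter, was listed at 0 in all 12 libraries, and 695 of its 790 exon bases are shared with Gm42688 on the same strand. The labels' protocol names both an ordinary and a strand-specific kind of library without saying which was made, so reads of overlapping genes cannot be told apart. In all, 32 members share some exon bases with another gene, and 3 of them (Mrpl53, Mrps25 and Mrps34) more than 50%.

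The order of the levels changed little between groups. Spearman's rho over the 76 tested members was 0.965 to 0.993 over all pairs of groups, with the lowest value between untreated SLE123 and untreated B6. These are correlations across genes, which share libraries and are not independent. Neighbours in the order could overlap, as did Mrpl9, which ranged over the 12 mice from 42.8 to 58.1 FPKM, and Mrpl24, from 53.5 to 71.3 FPKM. Among the paralogs of the bacterial S18 protein, Mrps18c, built into the small subunit, was at 26.9 FPKM, Mrps18a, built into the large subunit, at 10.3, and Mrps18b, built into the small subunit, at 10.1. Mrpl12, the stalk protein of the large subunit, which also binds the mitochondrial RNA polymerase, was at 7.83 FPKM. Mrps36, now known as a subunit of the oxoglutarate dehydrogenase complex, was at 14.0 FPKM.

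**Figure D2:**
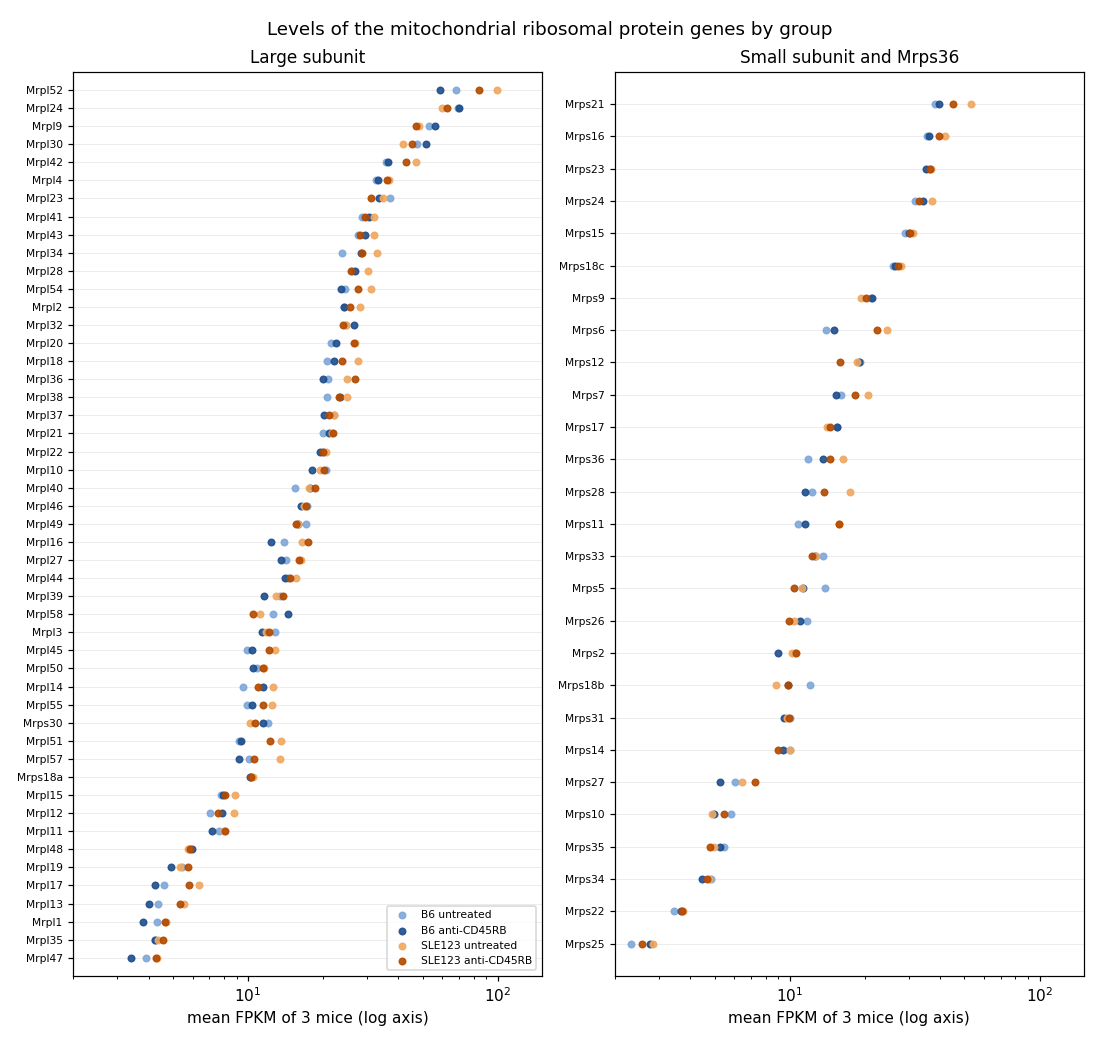
Mean FPKM of each tested member (x axis, log scale) in the 4 groups, 3 mice each, with large subunit proteins on the left and small subunit proteins and Mrps36 on the right, ordered by level. The order is nearly the same in each group, from 2.61 FPKM for Mrps25 to 77.4 FPKM for Mrpl52.

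Promoter windows from 250 bases before to 50 bases after the start site were taken from RefSeq (GRCm38.p6) for 68 of the 77 members, 74 windows in all. They were searched on both strands for short motifs of factors known to regulate genes of mitochondrial proteins. The ETS motif bound by GABP, CCGGAAG, was present in 33.8% of the members' windows and in 8.86% of all 32851 windows. The YY1 motif AAGATGGCG was present in 10.8% against 1.4%, the NRF1 motif GCATGCG in 9.46% against 3.58% and the CREB motif TGACGTCA in 2.7% against 1.79%. The same ETS letters stood in 22.7% of the windows of respiratory chain subunits and in 36.4% of those of cytoplasmic ribosomal protein genes. In the same order, these shares were 9.33% and 7.58% for YY1, 14.7% and 7.58% for NRF1 and 5.33% and 7.58% for CREB. Of the matched members, 25 held the ETS motif, 8 the YY1 motif (among them Mrps11, Mrps27, Mrpl36 and Mrpl42), 7 the NRF1 motif (among them Mrpl9, Mrpl17 and Mrps18b), 2 the CREB motif (Mrpl16 and Mrpl49) and 31 none of these. A match is a description of the letters, not evidence of binding.

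The stretches next to the start site are printed for some members. Those with the greatest difference between the strains are Mrps6 and Mrpl52, and those called with treatment in B6 are Mrpl34 and Mrps2. The stretches are 150 bases 5′ to 3′ on the strand of the gene and outside annotated exons, with motif matches in capitals. They lie at chr16:92058120-92058269 (Mrps6, plus strand), chr14:54426759-54426908 (Mrpl52, plus strand), chr8:71464776-71464925 (Mrpl34, plus strand) and chr2:28467916-28468065 (Mrps2, plus strand). The Mrps6 stretch ends 67 bases before the RefSeq start and the others end 1 base before it.
Mrps6: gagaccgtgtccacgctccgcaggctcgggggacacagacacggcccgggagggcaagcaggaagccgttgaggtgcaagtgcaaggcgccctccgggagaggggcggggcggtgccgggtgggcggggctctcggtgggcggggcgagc
Mrpl52: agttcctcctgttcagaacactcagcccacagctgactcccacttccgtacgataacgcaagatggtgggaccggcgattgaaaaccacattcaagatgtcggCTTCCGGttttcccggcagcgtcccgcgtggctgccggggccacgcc
Mrpl34: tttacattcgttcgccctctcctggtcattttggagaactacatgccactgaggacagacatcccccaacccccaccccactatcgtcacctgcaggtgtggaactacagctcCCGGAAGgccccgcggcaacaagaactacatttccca
Mrps2: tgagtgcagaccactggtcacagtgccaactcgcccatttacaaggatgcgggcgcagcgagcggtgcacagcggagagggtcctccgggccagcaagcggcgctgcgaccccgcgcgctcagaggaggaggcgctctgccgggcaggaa
The stretches of Mrpl52 and Mrpl34 each hold the ETS letters, and those of Mrps6 and Mrps2 hold none of the motifs searched.

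In B6 mice, the comparison asked which genes of CD4+ T cells responded to the antibody. With anti-CD45RB, 2 of the 76 tested members were called, Mrpl34 upwards and Mrps2 downwards. Neither differed by more than 0.24 on the log2 scale. Over all genes tested, 14.9% were called in this comparison (8.74% higher and 6.12% lower), beside 2.63% of the members. At an unadjusted p under 0.05 there were 14 members, where 32.3% of all genes lay. The median difference was -0.018 over the members and -0.002 over all genes, and for all 76 members the 95% confidence interval of the difference lay within 0.5 of 0. Adjusted p-values are from limma on log2(FPKM + 1), with Benjamini-Hochberg adjustment over all 13115 genes.

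Mrpl34 (ENSMUSG00000034880, chr8:71464959-71465747, plus strand) encodes a small large-subunit protein with a bacterial counterpart. It was at 24.2, 23.0 and 24.6 FPKM in the untreated B6 mice and at 27.9, 28.6 and 28.9 FPKM in the treated ones, so all treated mice were above all untreated ones. The log2 difference was 0.24 (SE 0.0394, n = 3 against 3, limma adjusted p = 0.0121). Without treated B6 replicate 5 the adjusted p was 0.0504, and with any other single mouse left out the call held. The call was also lost with all 12 mice in 1 fit (limma adjusted p = 0.345) and with the replicate number fitted as a block. Treated and untreated B6 share only numbers 3 and 5, so the block fit rests on few mice and cannot decide the matter. In SLE123 the gene was at 25.5, 41.6 and 31.3 FPKM untreated and 30.0, 25.4 and 30.5 FPKM treated, and these groups overlapped. The value of 41.6 FPKM came from the library that stood apart.

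Mrps2 (ENSMUSG00000035772, chr2:28468066-28471178, plus strand) encodes a small subunit protein with a bacterial counterpart. It was at 10.2, 10.8 and 10.4 FPKM in untreated B6 and at 9.07, 9.15 and 8.71 FPKM in treated B6, again without overlap. The log2 difference was -0.20 (SE 0.0501, limma adjusted p = 0.0406). The call was lost whichever of the 6 mice was left out, with adjusted p-values of 0.0776 to 0.126. In SLE123 its levels were 10.4, 10.9 and 9.43 FPKM untreated and 10, 11 and 10.7 FPKM treated.

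Among the members that did not pass the test, the largest negative differences in B6 were those of Mrps18b, Mrps5 and Mrpl52, and the largest positive ones those of Mrpl14 and Mrps36. Mrps18b was at 13.2, 11 and 12 FPKM untreated and at 9.63, 9.68 and 10.2 FPKM treated (log2 difference -0.27, SE 0.0721, limma adjusted p = 0.0514). Mrps5 was at 12.9, 15.4 and 13.2 FPKM untreated and at 12.4, 10.5 and 11 FPKM treated (log2 difference -0.27, limma adjusted p = 0.0801). The groups of both genes did not overlap. Mrpl14 was at 9.51, 10.7 and 8.48 FPKM untreated and 12.5, 11.7 and 10.2 FPKM treated (log2 difference 0.24, limma adjusted p = 0.148), with overlap. The differences of Mrpl52 and Mrps36 were -0.20 and 0.18 (limma adjusted p = 0.202 and 0.212).

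**Figure D3:**
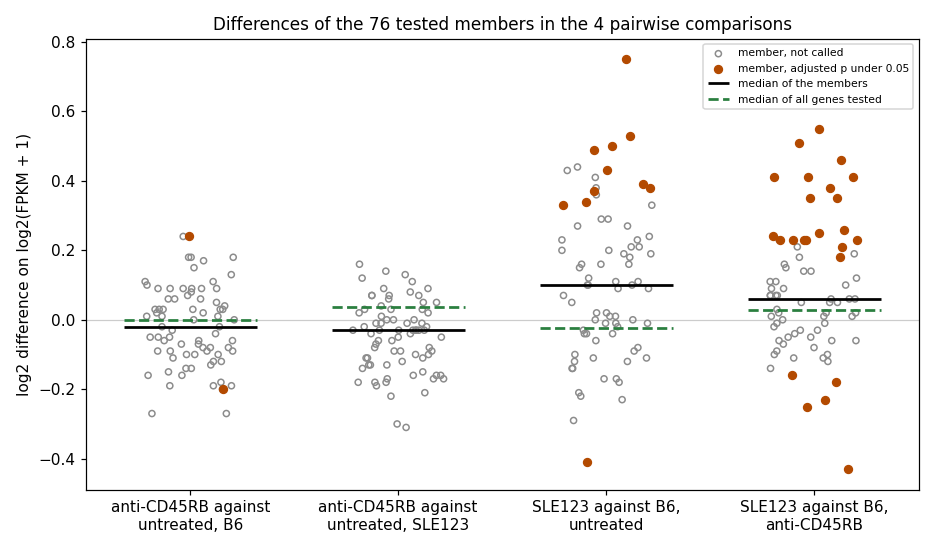
Log2 difference of each of the 76 tested members in the 4 pairwise comparisons (y axis, log2(FPKM + 1) scale), with members past an adjusted p of 0.05 filled, the members' median as a solid line and the median of all genes as a dashed line. The treatment columns hold 2 and 0 filled points, the strain columns 11 and 24. Rescaling to TPM moves both strain columns down, to medians of -0.257 and -0.108.

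In SLE123 mice, no member was called with treatment by limma, against 0.0381% of all genes (5 of 13115). At an unadjusted p under 0.05 there was 1 member, Mrpl57, against 10.4% of all genes, and limma's voom method on the recovered fragments also called none. The median difference of the members was -0.033, beside 0.038 over all genes. It was 0.035 without untreated replicate 2. The 95% interval lay within 0.5 of 0 for 67 of the 76 members, and reached beyond that size for the other 9.

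Mrpl57, a large subunit protein specific to mitochondria, was at 11.5, 14.6 and 14.1 FPKM in untreated SLE123 and at 9.60, 11.2 and 10.9 FPKM in treated SLE123. The groups did not overlap, and the log2 difference was -0.31 (SE 0.113, limma adjusted p = 0.466). The next largest difference was that of Mrps28, at 12.6, 22.8 and 17.2 FPKM untreated and 13.3, 15 and 12.7 FPKM treated (log2 difference -0.30, limma adjusted p = 0.541). Its groups overlapped, and the high value of 22.8 FPKM came from the library that stood apart. Mrpl52 followed, with a log2 difference of -0.22 (limma adjusted p = 0.581). The largest positive differences were those of Mrps27, Mrps10 and Mrps18b, at 0.16, 0.14 and 0.13, with limma adjusted p-values of 0.507, 0.542 and 0.603.

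The strain-by-treatment interaction, which asks whether the antibody moved a gene differently in the strains, called no member by limma and none by voom on the recovered fragments. Over all genes 3.64% were called, and 25.1% had an unadjusted p under 0.05, as had 7 of the 76 members. The median of the members was -0.028 and that of all genes 0.043. Without untreated SLE123 replicate 2 the members' median was 0.044. Without untreated SLE123 replicate 1, the interaction called 22.2% of all genes and 7 members (Mrpl18, Mrpl34, Mrps10, Mrps18b, Mrps21, Mrps27 and Mrps36). With any other mouse left out it called no member.

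The greatest interaction values were those of Mrps18b (0.40, SE 0.124, limma adjusted p = 0.0941), Mrps27 (0.34, SE 0.108, limma adjusted p = 0.0991) and Mrps10 (0.32, SE 0.0923, limma adjusted p = 0.0748) on one side. On the other were Mrpl14 (-0.42, limma adjusted p = 0.236), Mrpl34 (-0.41, limma adjusted p = 0.213) and Mrps36 (-0.34, limma adjusted p = 0.213). These values include the library that stood apart. In it Mrpl14 was at 15.3 FPKM, against 10.7 and 11.9 in the other untreated SLE123 mice, and Mrpl34 at 41.6, against 25.5 and 31.3. Mrps10, a small subunit protein with a bacterial counterpart, was at 5.82, 5.79 and 5.83 FPKM in untreated B6 and 4.76, 5.15 and 5.06 FPKM in treated B6. In SLE123 it was at 5.09, 5.01 and 4.51 FPKM untreated and 5.29, 5.64 and 5.41 FPKM treated. All treated mice were thus below the untreated ones in B6 and above them in SLE123. Mrps27, a pentatricopeptide repeat protein of the small subunit, had the same layout, with 6.00, 6.16 and 5.98 FPKM against 4.83, 5.65 and 5.24 in B6 and 6.71, 6.66 and 5.86 against 6.85, 7.81 and 7.20 in SLE123. Neither gene passed the test of the interaction.

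The strains were compared next, without and with treatment. These comparisons share no mice with each other, but each shares its mice with the treatment comparisons. Among untreated mice, 10 members were higher and 1 was lower in SLE123 on the deposited scale, whereas 0 were higher and 22 lower after rescaling to TPM (in which every library's length-scaled values are set to the same sum). The background was 42.9% of all genes called (22.8% higher and 20.1% lower), and 14.5% of the members. Rescaling to TPM moved the median of all genes from -0.025 to -0.379 and that of the members from 0.099 to -0.257. Leaving immunoglobulin and mitochondrial chromosome genes out of the library totals gave 24 members higher and 1 lower. Of all calls 53.2% were higher on the deposited scale, 24.3% in TPM and 65.9% without those genes. Relative to the median of all genes, the members' median was 0.121 to 0.146 higher under each scaling. These values include the library that stood apart, without which the members' median on the deposited scale was 0.038. In that library the median deviation was 0.247 for the members and 0.000 for all genes. In the other untreated SLE123 libraries it was -0.040 and 0.001 for the members, beside 0.011 and -0.050 for all genes.

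Mrps6 (ENSMUSG00000039680, chr16:92058270-92112227, plus strand), a small subunit protein with a bacterial counterpart, had the largest strain difference. It was at 13.9, 13.6 and 14.4 FPKM in untreated B6 and at 20.8, 31.1 and 21.7 FPKM in untreated SLE123. All SLE123 mice were above all B6 mice. The log2 difference was 0.75 (SE 0.148, limma adjusted p = 0.00624), and 0.40 to 0.86 over the scalings, with an adjusted p of 0.0626 in TPM. Without the library that stood apart it was 0.57 (adjusted p = 0.00178). Mrps6 shares 159 of its 1533 exon bases with Slc5a3 and 305 with Gm49711 on the same strand, and part of the reads could belong to these genes.

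Mrps11 (ENSMUSG00000030611, chr7:78783119-78792989, plus strand) and Mrpl51 (ENSMUSG00000030335, chr6:125191801-125196269, plus strand) were the others called whichever mouse was left out. Mrps11, of the small subunit, was at 9.98, 11.7 and 10.7 FPKM in untreated B6 and 14.3, 17.4 and 15.3 FPKM in untreated SLE123 (log2 difference 0.50, SE 0.101, limma adjusted p = 0.007). It lies on chromosome 7, which carries Sle3, and shares 173 exon bases with Mrpl46 on the opposite strand. Mrpl51, a mitochondria-specific protein of the large subunit, was at 8.98, 9.08 and 9.68 FPKM in B6 and 12.4, 14.9 and 13.1 FPKM in SLE123 (log2 difference 0.49, SE 0.0927, limma adjusted p = 0.00512). Neither gene's groups overlapped, and without the library that stood apart both differences were 0.42. After rescaling to TPM the difference of each was 0.15 and was not called.

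Mrpl52 (ENSMUSG00000010406, chr14:54426909-54429756, plus strand), the most abundant member, was at 58.5, 69.6 and 75.3 FPKM in untreated B6 and at 85.0, 126 and 86.7 FPKM in untreated SLE123. The highest value is that of the library that stood apart, and the groups did not overlap. The log2 difference was 0.53 (SE 0.169, limma adjusted p = 0.0404), and 0.34 without that library. The call was lost when any untreated B6 mouse was left out (adjusted p = 0.0626 to 0.14), and in TPM. The next members called higher were Mrps36 (0.43), Mrpl42 (0.39), Mrpl18 (0.38) and Mrpl57 (0.37), with limma adjusted p-values of 0.0281, 0.0236, 0.0422 and 0.0282. Mrpl54 and Mrps7, named after their values were seen, made up the rest (0.33 and 0.34). Without the library that stood apart these 6 differences were 0.31, 0.28, 0.29, 0.31, 0.22 and 0.31 in the same order, and those of Mrpl18 and Mrpl57 were no longer called. Of the untreated calls, 5 were of members under 1000 bases, where 22 were tested, and the median of these short members was 0.261, and 0.160 without the library that stood apart. Of all protein-coding genes of that length 33.8% were called, and their median was 0.128.

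Mrps18b (ENSMUSG00000024436, chr17:35910379-35916389, minus strand) was the member lower in untreated SLE123. It was at 13.2, 11 and 12 FPKM in untreated B6 and at 9.25, 8.38 and 8.86 FPKM in untreated SLE123, without overlap. The log2 difference was -0.41 (SE 0.0938, limma adjusted p = 0.0116), and was below 0 under each scaling (-0.79 to -0.30). Without untreated SLE123 replicate 2 it was -0.38 and still called, and without untreated B6 replicate 3 it was -0.35 and the adjusted p was 0.0566. It shares 638 of 2089 exon bases with the antisense transcript Gm16279. Its paralogs Mrps18a and Mrps18c were not called, with log2 differences of 0.01 (95% interval -0.28 to 0.31) and 0.10 (-0.09 to 0.29). Mrpl12 differed by 0.27 (-0.12 to 0.66, limma adjusted p = 0.223).

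Single mice weighed on the count. Without untreated SLE123 replicate 2, the library that stood apart, 8 members were higher and 4 lower, 9 of the 11 calls were among them, and the median of the members was 0.038. Without untreated SLE123 replicate 1, 20 were higher and 1 lower. Without untreated B6 replicates 3, 4 or 5, 4 members were called each time, and without untreated SLE123 replicate 3, 7 were.

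**Figure D4:**
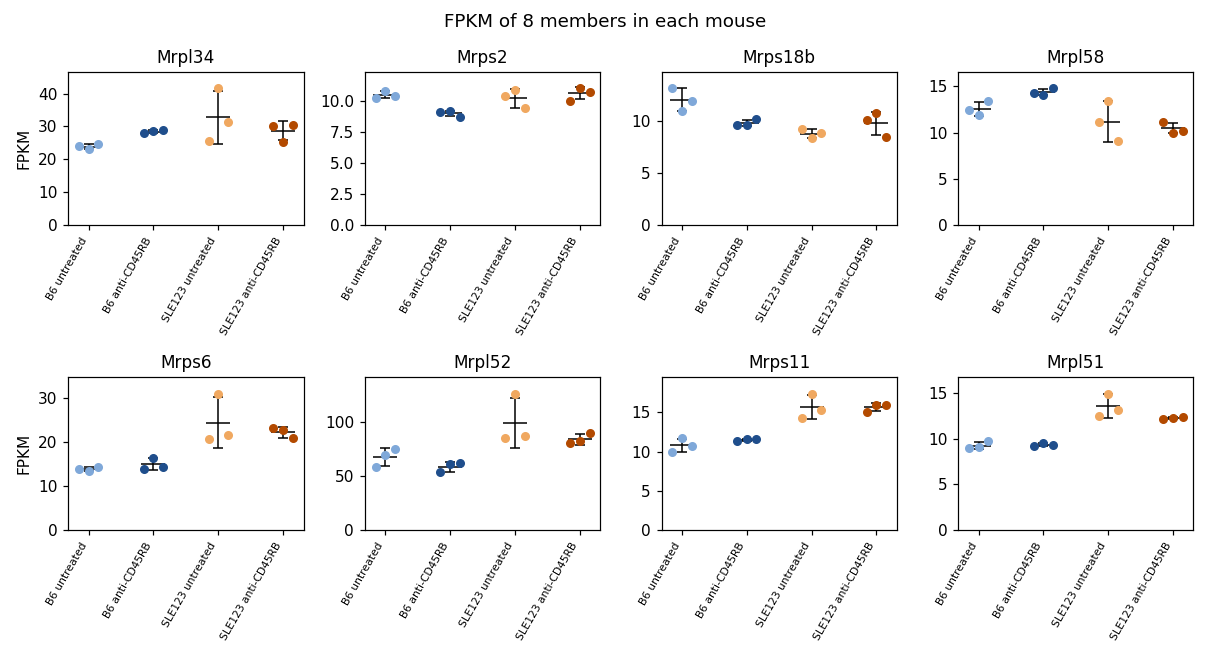
FPKM (y axis, from 0) of 8 members in each mouse (points) by group, with the mean and SD of 3 mice as bars. Mrpl34 and Mrps2 were called with treatment in B6. The Mrps2 call was lost whichever mouse was left out, and the Mrpl34 call without treated replicate 5. Mrps18b is lower in untreated SLE123, at 8.38 to 9.25 FPKM, than in untreated B6. Mrps6, Mrpl52, Mrps11 and Mrpl51 are higher in SLE123 with and without treatment on this scale. In TPM, the untreated differences of Mrpl52, Mrps11 and Mrpl51 shrink to 0.15 on the log2 scale and that of Mrps6 to 0.40, and none of these is called.

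Among treated mice, 19 members were higher and 5 lower in SLE123 on the deposited scale, but 6 higher and 16 lower in TPM. Of all genes 52.1% were called (29.6% higher and 22.5% lower), beside 31.6% of the members. The median of the members was 0.061 on the deposited scale and -0.108 in TPM, and that of all genes was 0.028 and -0.135. Without immunoglobulin and mitochondrial chromosome genes in the totals, 29 were higher and 2 lower. Of all calls 56.8% were higher on the deposited scale, 35.3% in TPM and 65.5% without those genes. Replicates were tighter here, with a median standard error of 0.0684 over the members against 0.109 among untreated mice, and 14 of the 24 calls held whichever mouse was left out.

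Mrps6 and Mrpl52 again had the largest positive differences. Mrps6 was at 14.0, 16.5 and 14.3 FPKM in treated B6 and at 23.2, 22.8 and 20.9 FPKM in treated SLE123 (log2 difference 0.55, SE 0.073, limma adjusted p = 0.000976). Mrpl52 was at 53.3, 60.8 and 61.6 FPKM in treated B6 and at 80.2, 82.0 and 89.6 FPKM in treated SLE123 (log2 difference 0.51, SE 0.0691, limma adjusted p = 0.00101). For both genes all SLE123 mice were above all B6 mice. The calls of both held under each of the 15 alternatives tried, TPM included.

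Mrpl16, with a bacterial counterpart, was at 11.1, 12.5 and 13.5 FPKM in treated B6 and 16.5, 18.6 and 17.0 FPKM in treated SLE123 (log2 difference 0.46, SE 0.0797, limma adjusted p = 0.00301). Mrps27 was at 4.83, 5.65 and 5.24 FPKM against 6.85, 7.81 and 7.20 (log2 difference 0.41, SE 0.0754, limma adjusted p = 0.00393). These groups did not overlap, and neither gene was called among untreated mice. Mrps11 and Mrpl36 also differed by 0.41, Mrpl17 by 0.38 and Mrpl51 by 0.35, with limma adjusted p-values of 0.000375, 0.00444, 0.00746 and 0.000727. In TPM the calls of Mrpl36 (0.24) and Mrpl17 (0.25) were lost. Mrps2, the gene lower with treatment in B6, was higher in treated SLE123 than in treated B6 (log2 difference 0.21, limma adjusted p = 0.014), a value that shares the treated B6 mice with the former. That call was lost without treated B6 replicate 5, without treated SLE123 replicate 2 or 3, and in TPM.

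Of the 5 members lower in treated SLE123, Mrpl58 (ENSMUSG00000018858, chr11:115403752-115412674, plus strand) differed most. It encodes a peptidyl-tRNA hydrolase built into the large subunit, which frees stalled ribosomes. It was at 14.3, 14.1 and 14.8 FPKM in treated B6 and at 11.1, 10 and 10.2 FPKM in treated SLE123, without overlap. The log2 difference was -0.43 (SE 0.0532, limma adjusted p = 0.000726), and it stayed below 0 and called under each alternative. Among untreated mice the levels were 12.5, 11.9 and 13.4 FPKM in B6 and 11.1, 13.4 and 9.06 FPKM in SLE123, which overlapped (log2 difference -0.17, limma adjusted p = 0.349).

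The abundant members Mrpl9, Mrpl30 and Mrpl24 and the decoding-site protein Mrps12 made up the rest, with log2 differences of -0.25, -0.18, -0.16 and -0.23 and limma adjusted p-values of 0.00212, 0.027, 0.0109 and 0.0334. Mrpl9 was at 54.8, 58.1 and 56.1 FPKM in treated B6 and 48.6, 47.1 and 45.8 FPKM in treated SLE123, without overlap. The calls of Mrpl30 and Mrps12 held under 6 of the 15 alternatives each. Those of Mrpl9 and Mrpl24 held under 14 and 12.

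Members called in the same direction in both strain comparisons numbered 7 (Mrpl42, Mrpl51, Mrpl52, Mrpl54, Mrps6, Mrps7 and Mrps11), which is 63.6% of the untreated and 29.2% of the treated calls. Over all genes, those called in the same direction in both made up 73.1% and 60.1%. All were higher in SLE123 on the deposited scale, but in TPM no member was called higher among untreated mice, and Mrpl54 and Mrps7 then lay at -0.04 and -0.03. The sign of the difference was the same in both comparisons for 58 of 76 members (76.3%), and for 76.3% of all genes. Called in no comparison were 47 of the 76.

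The Sle intervals lie on chromosomes 1, 4 and 7, and 15 members lie somewhere on these chromosomes. Between untreated strains 1 of them was called (Mrps11) and between treated strains 4 (Mrps11, Mrpl17, Mrps12 and Mrpl30), which is 6.67% and 26.7%. Of the 61 tested members elsewhere 16.4% and 32.8% were called, and of all genes 42.9% and 52.1%. Their median difference was -0.003 untreated and 0.020 treated, beside 0.123 and 0.070 for the members elsewhere. Without the library that stood apart, Mrps9 on chromosome 1 was called between untreated strains as well as Mrps11. Whether a member lies inside an interval was not examined.

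By subunit, the median difference between untreated strains was 0.154 over 49 large subunit members (6 higher, 0 lower) and 0.004 over 26 small subunit members (3 higher, 1 lower), on the deposited scale, and 0.039 and -0.068 without the library that stood apart. Between treated strains the medians were 0.070 (12 higher, 4 lower) and 0.017 (7 higher, 1 lower), again on a scale whose direction for the family turns in TPM. Untreated, 12.2% of the large and 15.4% of the small subunit members were called, against 42.9% of all genes. Treated, the shares were 32.7% and 30.8%, against 52.1%. Without the library that stood apart, 6 large and 5 small subunit members were called untreated. The difference between the subunits was not tested. The cytoplasmic ribosomal protein genes lay on the other side, with medians of -0.391 and -0.439 in the untreated and treated comparisons. Of the 76 of them, 8 were lower and 0 higher in untreated SLE123 (10.5% called), and 75 lower and 0 higher in treated SLE123 (98.7% called). Their medians were below 0 under each scaling, at -0.774 to -0.271 and -0.619 to -0.374. With single mice left out, 1 to 72 of them were called lower among untreated mice, the highest count being that without the library that stood apart. In the library that stood apart their median deviation was 0.194, and in the other untreated SLE123 libraries -0.215 and -0.520. The nuclear-encoded respiratory chain subunits had medians of 0.198 and 0.096 on the deposited scale, but of -0.176 and -0.078 in TPM. Of 79 on the deposited scale, 18 were higher and 2 lower untreated (25.3% called). Treated, 21 were higher and 11 lower (40.5% called). Without the library that stood apart the untreated median was 0.088, with 14 higher and 6 lower.

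The genes that build and serve the mitochondrial ribosome were examined as lists, in B6 with treatment (background 14.9% called). Calls were all downwards in the lists of assembly and rRNA modification factors (3 of 25), translation factors (2 of 15), aminoacyl-tRNA synthetases (3 of 17), transcription and RNA processing (1 of 12) and ribosomal proteins under other symbols (1 of 5). The medians of the first 4 were -0.123, -0.103, -0.110 and -0.096, beside -0.018 for the members and -0.002 for all genes. The members' median differed with transcript length, at 0.036 under 1000 bases, -0.017 for 1000 to under 2000 and -0.086 for 2000 or more. All protein-coding genes of these lengths had medians of 0.051, 0.020 and -0.011. All 17 synthetases had a difference below 0. Of the 12 tested protein-coding genes of the mitochondrial genome, 7 were called lower and 1 had a difference above 0, with a median of -0.208. Protein import had 0 of 19 called and a median of -0.017, and the biogenesis regulators 1 of 12, upwards. With single mice left out, 0 to 2 assembly factors, 0 to 1 synthetases, 1 to 2 translation factors and 3 to 6 mitochondrially encoded genes were called lower.

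Guf1, a GTPase that acts on the translating ribosome, fell from 6.99 ± 0.538 to 5.10 ± 0.137 FPKM (SD, n = 3 each, log2 difference -0.39, limma adjusted p = 0.0171). Mtif2, the initiation factor that brings the starter tRNA to the ribosome, fell from 20.8 ± 0.933 to 16.6 ± 0.469 FPKM (log2 difference -0.31, limma adjusted p = 0.00905). Vars2 and Ears2, which charge the tRNAs for valine and glutamate, both fell by 0.33 on the log2 scale (limma adjusted p = 0.0286 and 0.043). Fastkd2, an RNA-binding protein needed for the large subunit rRNA, fell from 5.79 ± 0.249 to 4.44 ± 0.119 FPKM (log2 difference -0.32, limma adjusted p = 0.0223). Ptcd3, a pentatricopeptide repeat protein of the small subunit without an Mrps symbol, fell from 25.4 ± 0.734 to 22 ± 0.493 FPKM (log2 difference -0.20, limma adjusted p = 0.0207). Elac2, which cuts the ends of tRNA precursors, differed by -0.20 (limma adjusted p = 0.0233). Among the transcripts of the mitochondrial genome, mt-Nd5 fell from 614 ± 58.7 to 440 ± 29.8 FPKM (log2 difference -0.48, limma adjusted p = 0.0114). Its protein was not measured. Crtc2, a coactivator of CREB, rose from 39.3 ± 1.57 to 47.0 ± 0.516 FPKM (log2 difference 0.25, limma adjusted p = 0.00829). In SLE123 none of these lists held a call by limma (0.0381% of all genes).

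**Figure D5:**
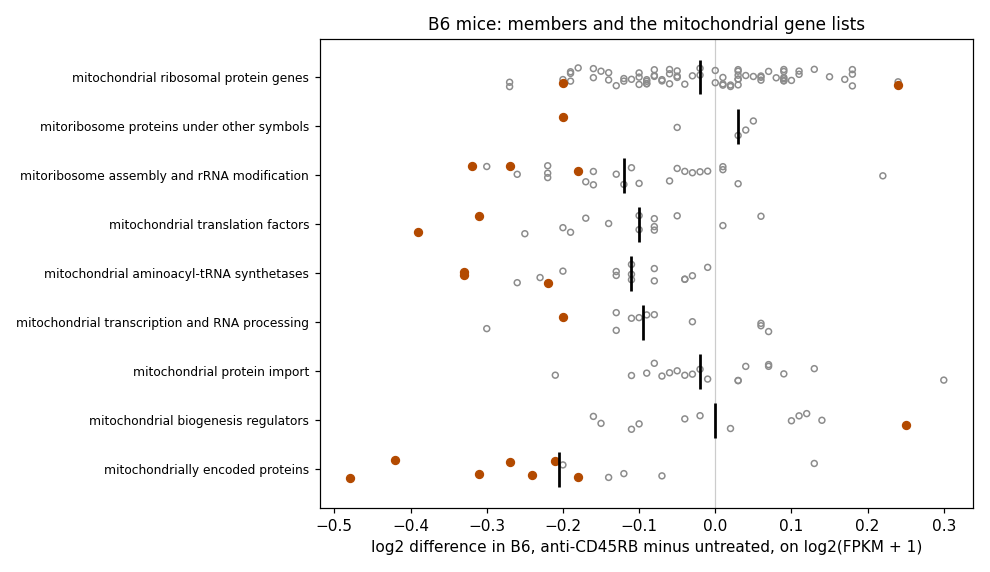
Log2 difference between treated and untreated B6 mice (x axis, log2(FPKM + 1) scale) for each tested gene of the members and of 8 lists, with genes past an adjusted p of 0.05 filled and list medians as bars. The members centre on -0.018, the synthetases all lie below 0 and the mitochondrially encoded genes centre on -0.208.

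The interaction called 3 genes of these lists, each with a difference below 0 in B6 and above 0 in SLE123. They were Supv3l1, the helicase of mitochondrial RNA turnover (0.55, limma adjusted p = 0.0262), Mtif2 (0.40, limma adjusted p = 0.0159) and Elac2 (0.38, limma adjusted p = 0.0138). Mtif2 was not called with immunoglobulin and mitochondrial chromosome genes left out of the totals. The calls were 1 of 15 translation factors and 2 of 12 genes of transcription and RNA processing, where 3.64% of all genes were called. With single mice left out, 0 to 4 translation factors, 1 to 4 genes of transcription and RNA processing and 0 to 4 synthetases were called higher.

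Between the strains the lists held calls in both directions on the deposited scale, while in TPM the median of each list named here was below 0. The background was 42.9% of all genes called untreated and 52.1% treated. Among assembly factors, 1 was higher and 8 lower of 25 in untreated SLE123 and 5 higher and 4 lower in treated SLE123 (36% each). Ddx28, an RNA helicase of large subunit assembly, was higher in both, at 4.99 ± 0.365 FPKM in untreated B6 and 10.4 ± 0.357 FPKM in untreated SLE123 (log2 difference 0.93, limma adjusted p = 0.000242) and at 4.56 ± 0.223 and 10.3 ± 0.886 FPKM with treatment (1.02, limma adjusted p = 9.35e-05). Rbfa, a small subunit assembly factor, was lower in both (-0.47 and -0.46, limma adjusted p = 0.0216 and 0.000889). Of the synthetases, 1 was higher and 6 lower untreated, and 2 higher and 3 lower treated (41.2% and 29.4%). Iars2, for isoleucine, was at 18.4 ± 0.338 and 10.7 ± 1.16 FPKM in untreated B6 and SLE123 (log2 difference -0.74, limma adjusted p = 0.000921). Lars2, for leucine, was at 150 ± 14.4 FPKM in treated B6 and 60.2 ± 13.2 FPKM in treated SLE123 (-1.32, limma adjusted p = 0.000464). Untreated, it was at 155 ± 18.9 FPKM in B6 and 92.2 ± 49.9 FPKM in SLE123 and was not called (-0.86, limma adjusted p = 0.0651). These levels are far above those of the other synthetases, the next being Tars2 at 26 ± 0.737 FPKM in untreated B6. Whether all reads of Lars2 come from its own transcript was not tested.

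Translation factors had 1 higher and 2 lower of 15 untreated and 3 higher treated, and transcription and RNA processing 5 lower of 12 untreated and 1 higher and 1 lower treated. Protein import had 2 higher of 19 untreated and 3 higher and 1 lower treated, with Timm17b of the inner membrane translocase at 0.55 and 0.33 (limma adjusted p = 0.0103 and 0.00607). The mitochondrially encoded genes had 1 lower of 12 untreated and 5 higher treated. With single mice left out, 0 to 3 of them were called lower untreated, and 3 to 5 higher and 0 to 4 lower treated. The untreated call was mt-Co3, at 15.9 ± 0.58 FPKM in B6 and 10.8 ± 3.12 FPKM in SLE123, where mt-Co1 was at 3429 ± 148 and 3016 ± 761 FPKM. Without the library that stood apart, the untreated medians were -0.172 for assembly factors, -0.181 for synthetases, -0.084 for translation factors, -0.209 for transcription and RNA processing, -0.005 for import and -0.014 for the mitochondrially encoded genes, beside -0.078, -0.208, -0.110, -0.216, 0.046 and -0.173 with it. With single mice left out, 3 to 8 synthetases and 0 to 7 genes of transcription and RNA processing were called lower among untreated mice. In TPM, 10 of 15 translation factors and 10 of 12 transcription genes were lower untreated, so that the balance of these counts rests on the scale.

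The regulators whose motifs were searched for in the members' promoters were themselves measured. In B6 with treatment none of Nrf1, Gabpa, Gabpb1, Yy1 and Creb1 was called. In treated SLE123 against treated B6, Yy1 was lower (54.0 ± 3.04 against 65.5 ± 2.04 FPKM, log2 difference -0.27, limma adjusted p = 0.00376), as were Nrf1 (-0.22, limma adjusted p = 0.0164) and Creb1 (-0.21, limma adjusted p = 0.0165), while Gabpb1 was higher on the deposited scale (0.18, limma adjusted p = 0.0364) and no regulator was called higher in TPM. Gabpa, the DNA-binding subunit of GABP, differed by 0.02 (limma adjusted p = 0.722). Among untreated mice Yy1 was also lower in SLE123 (log2 difference -0.28, limma adjusted p = 0.0307), as was Gabpb2 (-0.47, limma adjusted p = 0.0427). Pprc1, a coactivator of NRF1, was lower in both strain comparisons (-0.54 and -0.27, limma adjusted p = 0.00419 and 0.00122), and Myc was lower among untreated mice (-0.54, limma adjusted p = 0.00396). Over the list, 5 of 12 were lower and 0 higher untreated, and 6 lower and 1 higher treated. These are 41.7% and 58.3% called, against 42.9% and 52.1% of all genes.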

How the data were processed

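The authors purified CD4+ T cells, sequenced poly-A RNA and deposited 1 table of FPKM values, with each mouse in a column. Their processing notes name CASAVA 1.8, STAR and mm10, and the counting program, annotation and strand setting are not given in the sources used here. The methods also describe a sort by CD25 that the labels do not name. The FPKM of all 23230 genes above 0 corresponded to whole fragments (within 0.02), which gave the library totals. Gene types, positions and exon overlaps came from GENCODE M21, which holds 97.8% of the IDs. The deposited FPKM were analysed as log2(FPKM + 1) with limma 3.58.1 in R 4.3.3 (trend, Benjamini-Hochberg threshold 0.05) for 13115 genes averaging at least 0.5 FPKM, with 6 mice per pairwise comparison and 12 for the interaction, and the scripts were tested on simulated data. The authors compared conditions with DESeq2, which was not run here. Named members are, per comparison, up to 8 called in each direction (3 by size where fewer than 5 were called), the 3 highest and 3 lowest levels, those next to the filter, and Mrps18a, Mrps18b, Mrps18c, Mrps36, Mrpl12 and Mrpl58. Pathway genes named are called genes, most of them the largest in their list, and the searched regulators were named after their values were seen. Alternatives changed the pseudocount, filter, scaling, tool or mice fitted. The members and lists were chosen with earlier results of these data known.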

Additional observations from a re-analysis of the deposited data

How the results depend on the processing

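The members' calls depended on the settings as follows. With treatment in B6, 2 members were called, against 4 by voom on recovered fragments, 0 with all 12 mice in 1 fit and 0 to 1 with single mice left out. In untreated strains 11 were called, against 5 without a filter, 22 in TPM, 25 without immunoglobulin and mitochondrial chromosome genes in the totals, 23 with all 12 mice in 1 fit and 4 to 21 with single mice left out. In treated strains 24 were called, and 17 to 22 with single mice left out. The interaction called 0 to 7 with single mice left out. In TPM the median member difference was 0.147 in SLE123 with treatment, -0.257 and -0.108 between untreated and treated strains, and 0.167 for the interaction. Without immunoglobulin and mitochondrial chromosome genes it was 0.212 and 0.121 between the strains. The cause was not tested. Of the named members that were called, Mrpl54 and Mrps7 changed sign, both between untreated strains in TPM (-0.04 and -0.03), and the others kept theirs under the alternatives run.

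With the replicate number as a replicate block, 0 members were called with treatment in B6 (Mrpl34 at an adjusted p of 0.2) and 7 between treated strains, Mrps2 not among them. Whether the numbers pair mice is not known. Between groups, deviations of same-numbered mice correlated at -0.161 to 0.266 and those of differently numbered mice at -0.327 to 0.211. With so few pairs and both strains among them, these ranges cannot settle it. Treated and untreated B6 share only numbers 3 and 5, so that the block fit there rests on few mice. Untreated strains share only 1 number, so that no block could be fitted there. With 3 mice a group, the spread limits what can be called, and the summed FPKM of the members ranged from 1326 to 1477 in all libraries except untreated SLE123 replicate 2, at 1766.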
